A study of Danio rerio with 6 samples.

Results

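The proteasome genes of zebrafish proximal intestine were compared between short bowel syndrome (SBS) and sham surgery. The members were every gene whose name starts with psm, followed by a letter from a to g and a number. There were 52 of them among the 12398 genes of the deposited count table, and all 52 passed the minimum of 10 counts summed over the libraries used. By class they comprised 9 genes of the 20S alpha ring, 7 constitutive genes of the 20S beta ring, 4 immunoproteasome and other variant beta genes, 7 base ATPases, 4 base subunits without ATPase activity, 9 lid subunits, 5 genes of activators and an inhibitor, and 6 assembly chaperones. The last gene that the name picked up, psmc3ip, encodes a factor of meiotic recombination and is no proteasome subunit.

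Both groups were adult male wild-type Ekk zebrafish, and RNA came from full-thickness S1, the proximal intestinal segment, 2 weeks after the operation. SBS fish had S2 and S3 removed, the end of S1 brought out as a stoma at the body wall, and the distal bowel tied off. Sham fish had the abdominal wall opened and the bowel left untouched, so that the groups differ in bowel handling as well as in bowel length. Per the study's methods, the RNA samples sequenced were those of highest concentration, and nothing in the labels links libraries between groups. SBS was represented by 2 distinct libraries (replicates 1 and 3) and sham by 3 (replicates 1, 2 and 3), because the counts deposited for SBS replicate 2 equal those of SBS replicate 1 in 12488 of 12488 rows and were counted once.

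The 26S proteasome is the protease that degrades proteins tagged with ubiquitin in the cytoplasm and nucleus. Its 20S core is a barrel of alpha rings, which gate the entrance, around beta rings, which hold the proteolytic sites. The 19S particle caps the core: its base contains a ring of ATPases that unfold the substrate, and its lid removes the ubiquitin. In immune cells and under interferon, the catalytic beta subunits can be replaced by immunoproteasome versions, which favour peptides fit for display on class I molecules. In the intestine the proteasome takes part in protein turnover of the epithelium and in inflammatory signalling. Its subunits are required in fixed ratios, and in mammals their genes can be raised together by the transcription factor Nrf1.

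Deposited counts summed to 20377652 and 38867364 gene reads in the SBS libraries, against 44413792, 38728394 and 47142289 in the sham libraries. Every count of SBS replicate 1 is an even number, so the reads behind that library may be fewer than its sum. TMM factors, which scale each library on the bulk of its genes, were 1.502 and 1.33 in the SBS libraries, against 0.773, 0.919 and 0.707 in the sham libraries. Values below follow the order of replicates 1 and 3 in SBS and of replicates 1, 2 and 3 in sham. The tissue markers differed between the groups. Of 17 enterocyte markers tested, 14 were lower in both SBS libraries than in every sham library, and their summed level was 11008 and 51363 CPM (read counts scaled to TMM library size) in the SBS libraries, against 166087, 116351 and 141152 CPM in the sham libraries. Of 19 hepatocyte markers, 18 were higher in both SBS libraries, with 22872 and 4394 CPM in all, against 107, 120 and 234 CPM in the sham libraries, where none of the 19 was at 0 in every library. Of 20 neutrophil and macrophage markers, 15 were higher in both SBS libraries, with 10356 and 15399 CPM, against 2293, 3036 and 5777 CPM. The neutrophil gene mpx, with 286 and 11098 CPM in the SBS libraries, against 3.06, 8.21 and 3.96 CPM in the sham libraries, carried the sum of SBS replicate 3, and without it, a sum formed after its values were seen, the list came to 10070 and 4301 CPM in the SBS libraries, against 2290.2, 3028 and 5773 CPM in the sham libraries, which overlapped. Of 22 cell cycle genes, 13 were higher in both SBS libraries, with 499.7 and 978 CPM, against 107, 479.9 and 182 CPM. Exocrine pancreas markers overlapped between the groups in all 13 genes tested. Their sum was 3005 and 9673 CPM in the SBS libraries, against 16076, 1795 and 47579 CPM in the sham libraries. Smooth muscle markers overlapped in 4 of 6 genes, and 2 were lower in both SBS libraries. None of the 6 had a log2 fold change above 0, and their median was -1.44. In all 6, SBS replicate 1 lay below every sham library, and in 2 SBS replicate 3 did. Of 13 lymphocyte markers 1 was higher and 3 lower in both SBS libraries. Of all genes tested, 22.6% were higher and 24.3% lower in both SBS libraries. The enterocyte, hepatocyte, neutrophil and macrophage and cell cycle markers thus moved with the group in most of their genes, their part in the proteasome results was not tested, and in a bulk sample fewer cells of a type and less RNA per cell cannot be told apart.

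Proteasome transcripts stood higher in the SBS libraries across nearly every class, without any single gene passing the limits for a called change. Apart from the chaperones and psmc3ip, class medians of the log2 fold change ran from 1.05 to 1.27, while single genes and the SBS libraries differed more. The members together took 0.659% and 1.06% of gene reads in the SBS libraries, against 0.194%, 0.283% and 0.217% in the sham libraries. Their summed level was 4388 and 8026 CPM in the SBS libraries, against 2511, 3084 and 3077 CPM in the sham libraries, so that both SBS libraries lay above every sham library. The log2 fold change of SBS over sham was above 0 in 50 of 52 members (96.2%), where 50% of the 12381 genes tested were above 0. It was above 0 in 40 of 52 when libraries were scaled to reads of the spike-in RNA added to each sample, a setting for which the share of all genes above 0 was not computed. Its median over the members was 1.101, with a range of -0.59 to 3.00 and an SD over genes of 0.55, where the median of all genes was 0.00 with an SD of 1.71. The median of the members was 0.36 with spike-in scaling, where that of all genes was -0.63. With libraries scaled to gene reads alone it was 1.88, where that of all genes was 0.82.

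A call needed both a Benjamini-Hochberg adjusted p below 0.05 in the quasi-likelihood test of edgeR, and a log2 fold change no smaller in size than 1.5. No member was called higher and none lower, where 2.49% of all genes were called higher and 2.06% lower. At an unadjusted p under 0.05, 38 of 52 members (73.1%) were higher, where 15.7% of all genes were. The likelihood ratio test of edgeR called 6 members higher and the Wald test of DESeq2 called 7, with 9.81% and 9.51% of all genes called higher by those tests. The RUVg model called 12, where it called 7.75% of all genes higher, and counting the repeated SBS column as a library of its own gave 3, where 9.54% of all genes were called higher. Without the fold limit, 1 member passed by the quasi-likelihood test, psmf1, where 2.6% of all genes passed as higher. Adjusted p-values of the members ran from 0.0496 to 0.949. A log2 fold change of at least 1 was reached by 32 members (61.5%), where 20.2% of all genes reached it.

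The groups did not overlap in 42 of 52 members (80.8%), all with both SBS libraries above every sham library, where 22.6% of all genes were placed so. This count depended on the scale of the libraries, and with spike-in scaling it was 8 members, where 6.95% of all genes were placed so. None of the members was lower in both SBS libraries than in every sham library, a position held by 24.3% of all genes. The 10 members whose groups overlapped were psma2, psma4, psmb5, psmb9a, psme3, psmd5, psmd9, psmd10, psmg2 and psmg3.

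**Figure D1:**
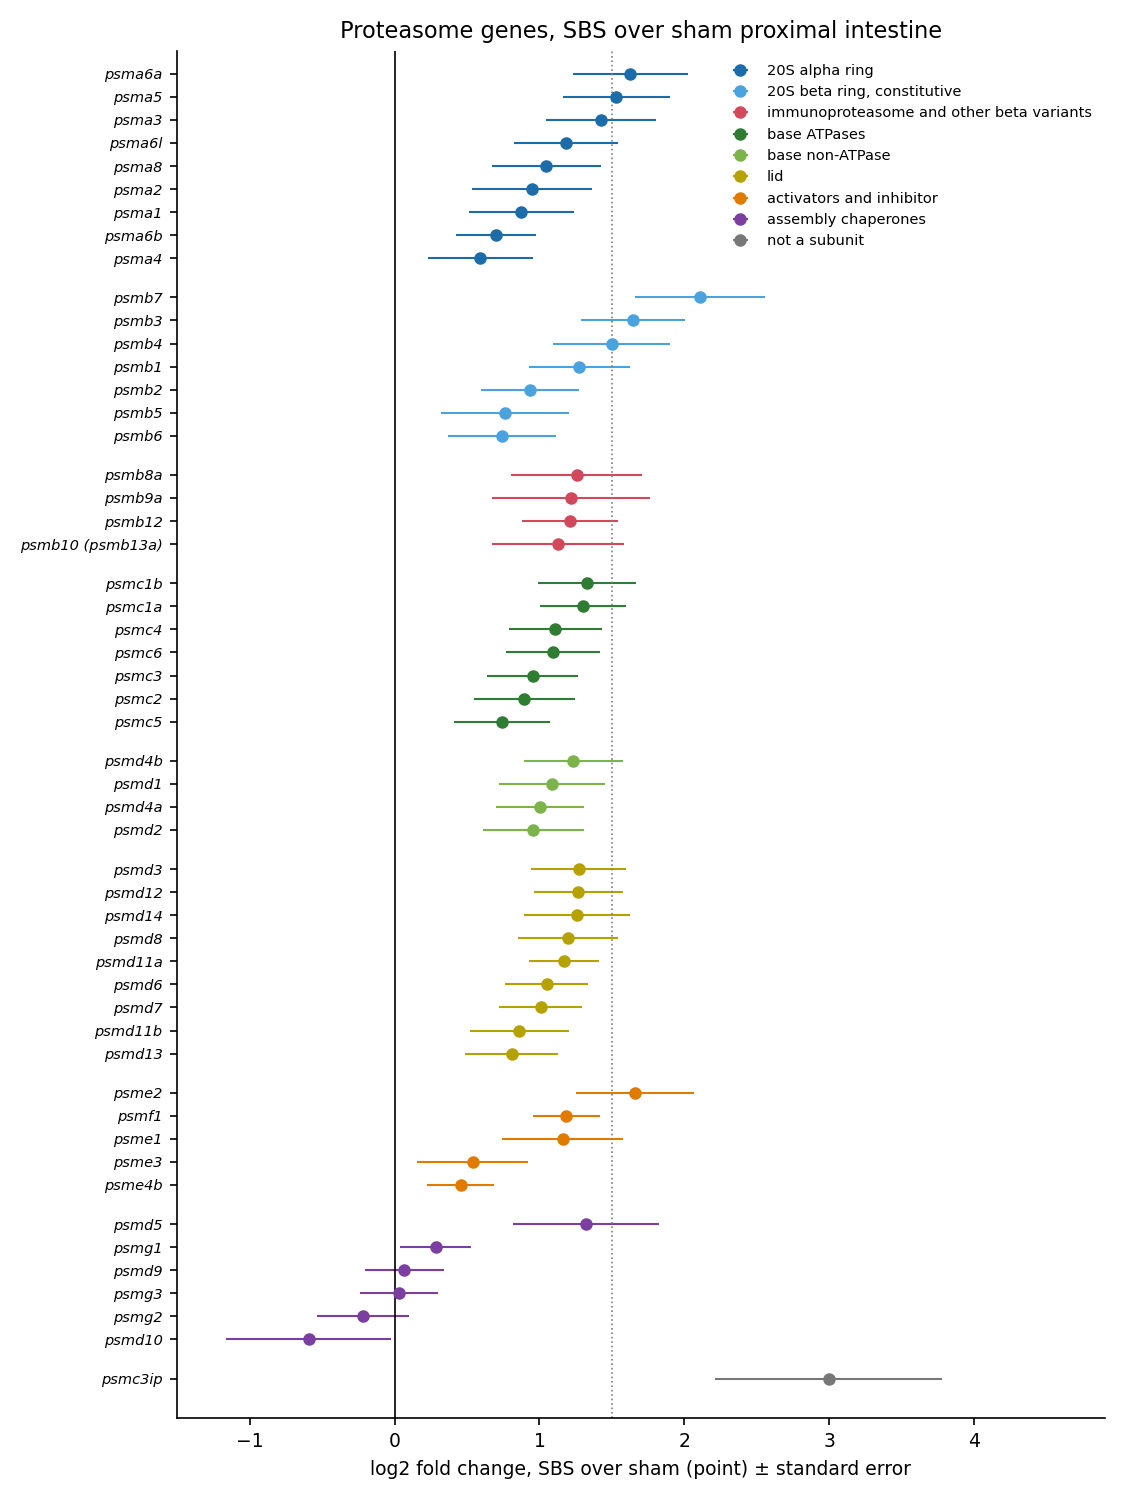
Log2 fold change of SBS over sham for each of the 52 proteasome genes (points, with the standard error of the quasi-likelihood fit as bars), arranged by class, with a dotted line at the fold limit of 1.5. The 26S subunits lie between 0.59 and 2.11, while 5 of the 6 assembly chaperones lie between -0.59 and 0.28.

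The SBS libraries were not alike. SBS replicate 3 was above SBS replicate 1 in 49 of 52 members (94.2%), where 52.5% of all genes were, and the median ratio of replicate 3 to replicate 1 was 1.85 over the members and 1.06 over all genes with reads in every library. The exceptions were psmb7 (ratio 0.456), psme4b (0.835) and psmf1 (0.979). Relative to the mean of the sham libraries, the median member stood at 0.60 on the log2 scale in SBS replicate 1 and at 1.45 in SBS replicate 3. The sham libraries varied less, with a median coefficient of variation of 14.0% over the members, against 21.1% over all genes. Without SBS replicate 3 the median log2 fold change of the members was 0.58 and 1 member was called higher, where 10.5% of all genes were. Without SBS replicate 1 the median was 1.43 and 16 members were called higher, where 2.69% of all genes were, so that the size of the difference depended on which SBS library was used. Each of these settings left 1 SBS library, so the spread came from the sham libraries alone. Their counts of called genes therefore carry no replication within SBS, and the dependence rests on the medians of 0.58 and 1.43. SBS replicate 1 was also the library with the most hepatocyte and interferon transcripts and the fewest enterocyte transcripts.

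**Figure D2:**
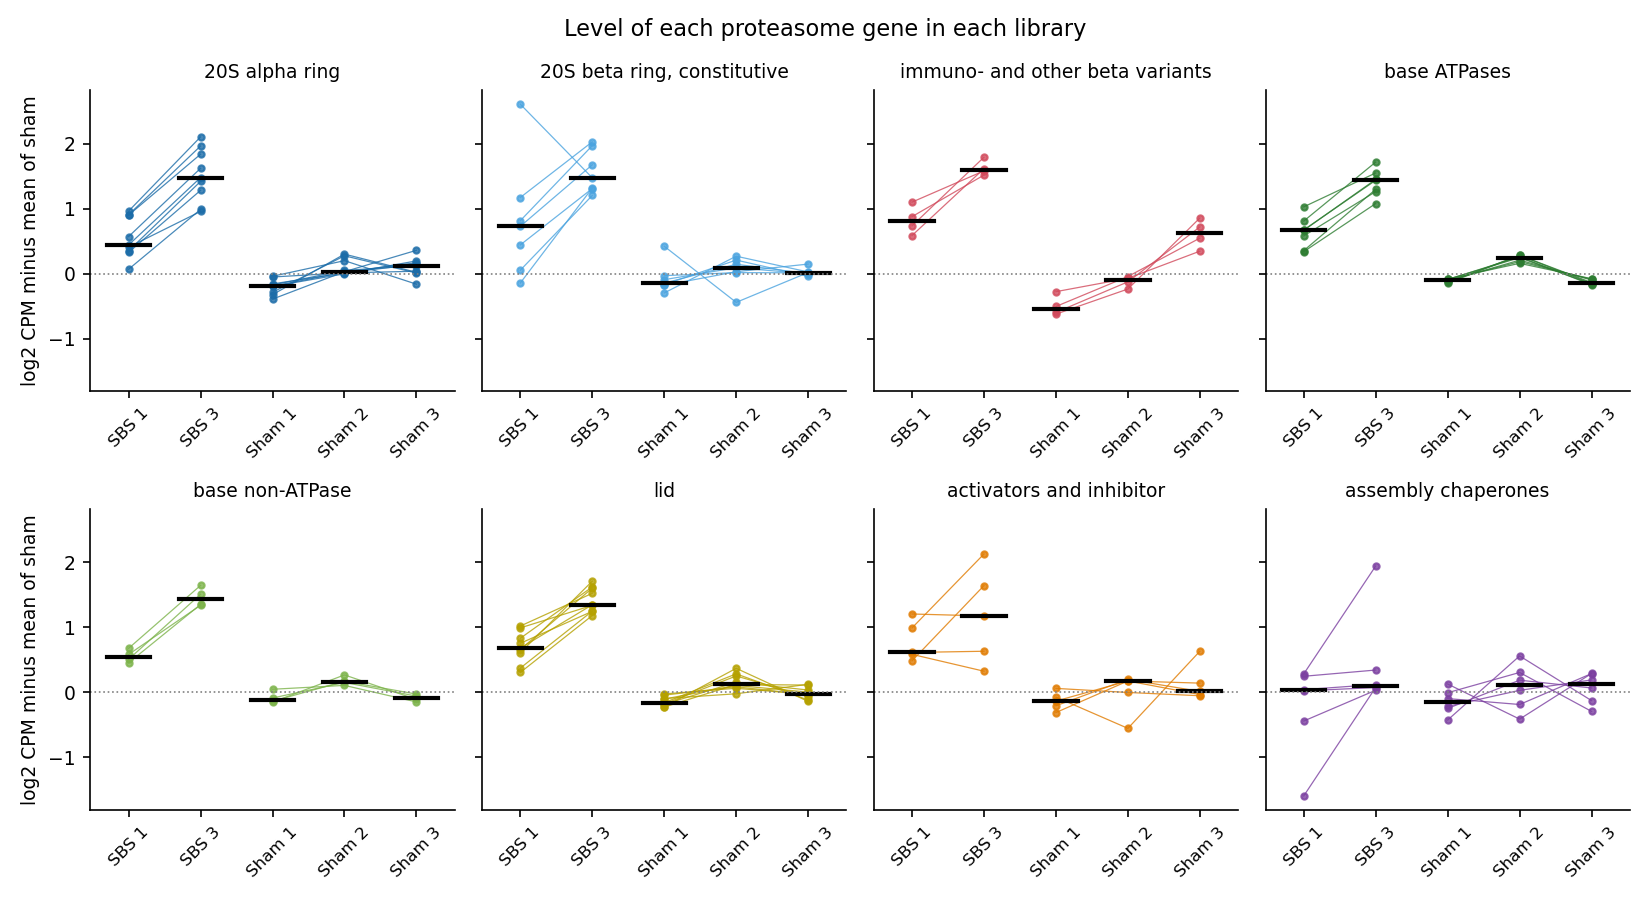
Level of each proteasome gene in each of the 5 libraries, as log2 CPM minus the mean log2 CPM of the sham libraries, with 1 panel per class, thin lines joining the values of 1 gene within a group and black bars at the class median. SBS replicate 3 lies above SBS replicate 1 in most genes, and the chaperones alone have class medians near 0 in both SBS libraries (0.03 and 0.10).

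The 20S alpha ring, which gates the core, had a median log2 fold change of 1.05 over its 9 genes, and the groups did not overlap in 7 of them. The largest value was that of psma6a, which had 42.9 and 94.7 CPM in the SBS libraries, against 18, 26.6 and 22.1 CPM in the sham libraries. The SBS values were clear of the sham values, and the log2 fold change was 1.63 ± 0.40 (SE), adjusted p = 0.0745. The smallest was that of psma4, with 128 and 242 CPM in the SBS libraries, against 107, 122 and 139.9 CPM in the sham libraries. Here the lower SBS library fell inside the sham range, and the log2 fold change was 0.59 ± 0.36 (SE), adjusted p = 0.327. Similarly psma2, which the reference tables name psma2a, overlapped, with 96.7 and 203 CPM in the SBS libraries, against 57.7, 77.4 and 97.2 CPM in the sham libraries. The next largest after psma6a was psma5, with 155 and 323 CPM in the SBS libraries, against 79.8, 83.4 and 84.8 CPM in the sham libraries, and its sham libraries lay close together. Its log2 fold change was 1.53 ± 0.37 (SE), adjusted p = 0.0741.

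Zebrafish carry 3 genes for the psma6 type of alpha subunit in this table. As level per length (RPKM, which is CPM over gene length in kilobases), psma6a had 22.7 and 50.1 RPKM in the SBS libraries, against 9.54, 14.1 and 11.7 RPKM in the sham libraries. Its paralog psma6b was the higher of the pair in every library, with 43.1 and 63.1 RPKM in the SBS libraries, against 31.6, 37.3 and 29 RPKM in the sham libraries. The psma6a to psma6b ratio of levels per length was therefore below 1 throughout, at 0.527 and 0.794 in the SBS libraries, against 0.302, 0.377 and 0.404 in the sham libraries, and the groups did not overlap. The psma6l to psma6b ratio was 0.928 and 1.31 in the SBS libraries, against 0.755, 0.747 and 1.01 in the sham libraries, and the groups overlapped. How often such ratios separate the groups over all genes was not computed. The log2 fold change of psma6b was 0.70 ± 0.28 (SE), adjusted p = 0.166, with both SBS libraries above the sham libraries. The more distant psma6l had 40.0 and 82.9 RPKM in the SBS libraries, against 23.9, 27.9 and 29.3 RPKM in the sham libraries, close to psma6b in level, and a log2 fold change of 1.19 ± 0.36 (SE), adjusted p = 0.105. Reads shared between near-identical copies could have been split or dropped by the counting, so the levels of paralogs are uncertain to that extent. The annotated transcript behind psma3 is a retained-intron form, and this gene had a log2 fold change of 1.42 ± 0.38 (SE), adjusted p = 0.0859.

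Among the constitutive beta subunits the median log2 fold change was 1.27 over 7 genes, and 6 of them did not overlap. The catalytic subunits psmb5, psmb6 and psmb7, which carry the chymotrypsin-like, caspase-like and trypsin-like sites, stood at the ends of the range. The gene with the largest value was psmb7, with 25.9 and 11.8 CPM in the SBS libraries, against 5.68, 3.12 and 4.29 CPM in the sham libraries. It was the only 26S subunit that was lower in SBS replicate 3 than in SBS replicate 1, and its level per length was the lowest of the 26S subunits in sham. The log2 fold change was 2.11 ± 0.45 (SE), adjusted p = 0.0594. The smallest was that of psmb6, with 55.9 and 124 CPM in the SBS libraries, against 52.8, 54.5 and 54.4 CPM in the sham libraries, and its sham libraries lay within a narrow band just below SBS replicate 1. The log2 fold change was 0.74 ± 0.37 (SE), adjusted p = 0.248. The level of psmb5 was high in SBS replicate 3 alone, with 48.1 and 133 CPM in the SBS libraries, against 49.9, 56.6 and 53.1 CPM in the sham libraries, and its log2 fold change of 0.76 ± 0.44 (SE), adjusted p = 0.303 became -0.14 without SBS replicate 3. The structural subunits psmb3 and psmb4 had log2 fold changes of 1.65 and 1.498, with adjusted p = 0.0618 and 0.0863 by the quasi-likelihood test.

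The immunoproteasome and other variant beta genes had a median log2 fold change of 1.21 over 4 genes, within the range of the constitutive beta genes. The interferon-inducible counterpart of psmb5, psmb8a, had 213 and 297 CPM in the SBS libraries, against 65.7, 91 and 163 CPM in the sham libraries. Both SBS libraries were above the sham libraries, although sham replicate 3 came near SBS replicate 1, and the log2 fold change was 1.26 ± 0.45 (SE), adjusted p = 0.140. The counterpart of psmb6, psmb9a, had 87 and 181 CPM in the SBS libraries, against 33.9, 44.3 and 94.6 CPM in the sham libraries. Sham replicate 3 exceeded SBS replicate 1, so the groups overlapped, and the log2 fold change was 1.22 ± 0.55 (SE), adjusted p = 0.205. The row named psmb10 carries identifiers that both reference tables give to psmb13a, a variant beta subunit gene on chromosome 19, and is called the psmb10 row here, while the gene those tables name psmb10 was not analysed here. It had 122 and 248 CPM in the SBS libraries, against 57, 78.5 and 118 CPM in the sham libraries, with sham replicate 3 just under SBS replicate 1, and a log2 fold change of 1.13 ± 0.46 (SE), adjusted p = 0.171. Also on chromosome 19, psmb12 had 105 and 164 CPM in the SBS libraries, against 47.2, 54.4 and 72.7 CPM in the sham libraries. Its groups did not overlap, and the log2 fold change was 1.21 ± 0.33 (SE), adjusted p = 0.0884.

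The spread of these genes among the sham libraries was wide. The median coefficient of variation over the sham libraries was 42.2% in this class, against 14.0% over all members, and sham replicate 3 was the highest sham library for each of the 4 genes. Within each library, the mean log2 level per length of psmb8a, psmb9a and the psmb10 row minus that of psmb5, psmb6 and psmb7 was 1.49 and 1.85 in the SBS libraries, against 0.84, 1.49 and 2.22 in the sham libraries. The groups overlapped, and the difference of the means was 0.15 with an SD among sham libraries of 0.69. This difference was -0.19 without sham replicate 1 and -0.03 without SBS replicate 3, so no direction was established. With psmb8a and psmb9a set against psmb5 and psmb6 alone, a comparison added after the values were seen, it was 1.11 and 0.57 in the SBS libraries, against -0.40, -0.09 and 0.93 in the sham libraries, which overlapped as well. For the single pair of psmb8a minus psmb5 the values were 2.29 and 1.30 in the SBS libraries, against 0.54, 0.82 and 1.76 in the sham libraries. For psmb9a minus psmb6 they were -0.07 and -0.16 in the SBS libraries, against -1.34, -1.004 and 0.09 in the sham libraries, again with sham replicate 3 inside or above the SBS values. For the psmb10 row minus psmb7 they were 2.24 and 4.41 in the SBS libraries, against 3.34, 4.66 and 4.79 in the sham libraries. These overlapped, with a difference of means of -0.94. That difference was 0.76 for psmb8a minus psmb5 and 0.64 for psmb9a minus psmb6. In sham, psmb7 had a mean of 4.16 RPKM, against 40.5 RPKM for psmb5 and 79.5 RPKM for psmb6.

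In the base of the 19S particle, the 7 ATPase genes had a median log2 fold change of 1.09 and their groups did not overlap in any of the 7. The largest value was that of psmc1b, with 63.3 and 119 CPM in the SBS libraries, against 33.4, 41.7 and 33.7 CPM in the sham libraries, and a log2 fold change of 1.33 ± 0.34 (SE), adjusted p = 0.0797. Its paralog psmc1a had 98.7 and 142 CPM in the SBS libraries, against 44.2, 58.8 and 43.5 CPM in the sham libraries, with every sham library below the lower SBS library. The log2 fold change of psmc1a was 1.30 ± 0.29 (SE), adjusted p = 0.0672, and the ratio of psmc1a to psmc1b per length was 1.35 and 1.03 in the SBS libraries, against 1.14, 1.22 and 1.12 in the sham libraries, which overlapped. The smallest of the ATPases was psmc5, with 100.2 and 168 CPM in the SBS libraries, against 71.6, 96.5 and 72 CPM in the sham libraries. Sham replicate 2 came close to SBS replicate 1, and the log2 fold change was 0.74 ± 0.33 (SE), adjusted p = 0.203. The remaining ATPases, psmc2, psmc3, psmc4 and psmc6, had log2 fold changes of 0.90, 0.95, 1.11 and 1.09.

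The base subunits without ATPase activity and the lid together counted 13 genes, and none of the 13 overlapped. In the base, psmd1 and psmd2 are the large scaffolds that dock ubiquitin receptors, and psmd4a and psmd4b encode copies of the ubiquitin receptor itself. The highest of these was psmd4b, with 52.6 and 103 CPM in the SBS libraries, against 29.9, 37 and 32.3 CPM in the sham libraries, and a log2 fold change of 1.23 ± 0.34 (SE), adjusted p = 0.0913. Its paralog psmd4a had 42.7 and 72.2 CPM in the SBS libraries, against 29.5, 30.7 and 25.7 CPM in the sham libraries, and a log2 fold change of 1.00 ± 0.30 (SE), adjusted p = 0.103. The ratio of psmd4a to psmd4b per length was 0.901 and 0.778 in the SBS libraries, against 1.09, 0.921 and 0.885 in the sham libraries, and the groups overlapped. The lowest was psmd2, with 67.5 and 126 CPM in the SBS libraries, against 44.4, 59.4 and 45.7 CPM in the sham libraries, and its log2 fold change was 0.96 ± 0.35 (SE), adjusted p = 0.141, close to the 1.09 of psmd1.

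The lid subunits had a median log2 fold change of 1.17 over 9 genes. The structural subunit psmd3 had the largest value, with 127 and 219 CPM in the SBS libraries, against 62.5, 79.2 and 72.9 CPM in the sham libraries. All sham libraries lay well under SBS replicate 1, and the log2 fold change was 1.27 ± 0.33 (SE), adjusted p = 0.0813. The deubiquitinase psmd14, which cuts the ubiquitin chain from the substrate, had 68.4 and 147 CPM in the SBS libraries, against 41.7, 48.2 and 44.9 CPM in the sham libraries, and a log2 fold change of 1.26 ± 0.37 (SE), adjusted p = 0.0988. The smallest value was that of psmd13, with 62 and 114 CPM in the SBS libraries, against 49.3, 52.4 and 49.1 CPM in the sham libraries, where the sham libraries lay together just beneath SBS replicate 1, and its log2 fold change was 0.81 ± 0.32 (SE), adjusted p = 0.166. Of the psmd11 pair, psmd11a had 62.3 and 79.3 CPM in the SBS libraries, against 29.3, 30.9 and 34.1 CPM in the sham libraries, with SBS libraries that resembled each other more than in most members. Its adjusted p was the lowest of the 26S subunits, with a log2 fold change of 1.17 ± 0.24 (SE), adjusted p = 0.0565. For psmd11b the level was 46.7 and 85.7 CPM in the SBS libraries, against 32.2, 43.9 and 33.2 CPM in the sham libraries, and the log2 fold change was 0.86 ± 0.34 (SE), adjusted p = 0.167. Per length, the psmd11a to psmd11b ratio was 0.888 and 0.614 in the SBS libraries, against 0.604, 0.467 and 0.684 in the sham libraries, and the groups overlapped.

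Over the 36 subunits of the 26S particle (core and 19S without the variant beta genes), all 36 log2 fold changes were above 0, 33 did not overlap and the median was 1.09. The SD of the log2 fold change over genes was 0.17 in the 20 genes of the 19S particle and 0.43 in the 16 genes of the core. The mean log2 level per length of the core minus that of the 19S particle was 0.86 and 0.96 in the SBS libraries, against 0.82, 0.73 and 0.98 in the sham libraries, so that the core to cap ratio of transcripts overlapped between the groups. By mean level, the 26S subunits ranged from 17.8 to 265 RPKM in SBS and from 4.16 to 124 RPKM in sham.

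**Figure D3:**
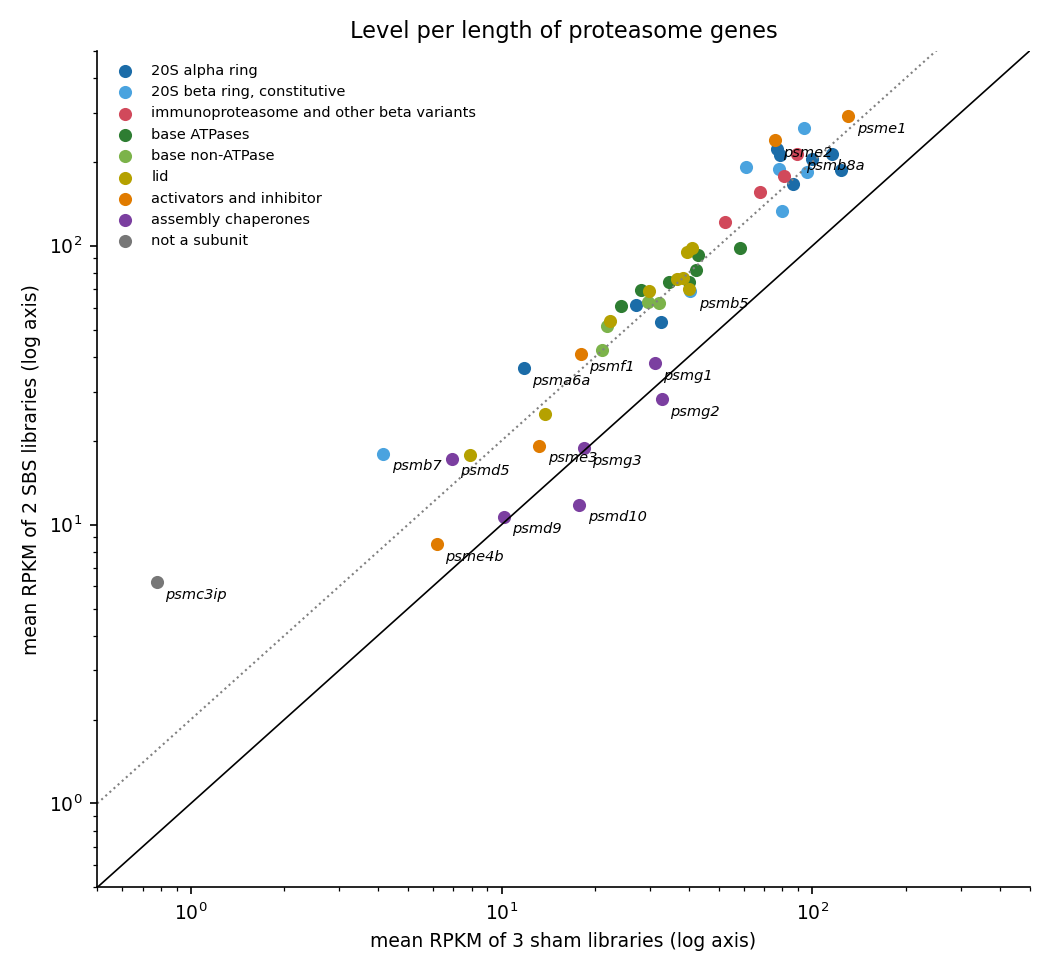
Mean level per length of each proteasome gene in the 2 SBS libraries (vertical, RPKM, log axis) against the mean of the 3 sham libraries (horizontal, RPKM, log axis), coloured by class, with a solid line of equality and a dotted line at a log2 difference of 1. Most of the more abundant genes lie near the dotted line, genes of low level scatter more widely, and psmd10 and psmg2 lie under the solid line.

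Activators replace or join the 19S cap at the ends of the core. The PA28 alpha and beta subunits, encoded by psme1 and psme2, form an interferon-inducible ring that opens the core without ATP. The level of psme2 was 208 and 458 CPM in the SBS libraries, against 90.7, 120.2 and 106 CPM in the sham libraries, with no overlap and a log2 fold change of 1.66 ± 0.41 (SE), adjusted p = 0.0752. For psme1 the level was 196 and 437 CPM in the SBS libraries, against 113, 158 and 154 CPM in the sham libraries, also without overlap, and the log2 fold change was 1.16 ± 0.42 (SE), adjusted p = 0.142. The psme2 to psme1 ratio per length was 0.830 and 0.819 in the SBS libraries, against 0.628, 0.594 and 0.535 in the sham libraries, and the groups did not overlap. Set against the alpha ring within each library, the mean log2 level per length of the PA28 pair was 0.96 and 1.14 higher in the SBS libraries, against 0.71, 0.86 and 0.75 higher in the sham libraries, a difference of means of 0.28 with an SD of 0.08 among sham libraries. This comparison was not planned. How often ratios of this kind separate the groups over all genes was not computed, for it or for psme2 to psme1.

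The nuclear activator PA28 gamma, encoded by psme3, had 30.5 and 30.9 CPM in the SBS libraries, against 19, 13.6 and 30.9 CPM in the sham libraries. Sham replicate 3 reached the level of the SBS libraries, the groups overlapped, and the log2 fold change was 0.54 ± 0.38 (SE), adjusted p = 0.397. The large activator PA200 encoded by psme4b had 65 and 54.3 CPM in the SBS libraries, against 45.2, 43.3 and 41.8 CPM in the sham libraries, and it was among the few members with the higher value in SBS replicate 1. Its groups did not overlap, and the log2 fold change was 0.46 ± 0.23 (SE), adjusted p = 0.249. The inhibitor PI31, encoded by psmf1, binds the core and can compete with activators. Its level was 56.7 and 55.6 CPM in the SBS libraries, against 22.4, 27.7 and 24 CPM in the sham libraries, with SBS libraries nearly equal and sham libraries all below them. The log2 fold change was 1.18 ± 0.23 (SE), adjusted p = 0.0496 (95% interval 0.61 to 1.75), which passed the adjusted p limit but not the fold limit. The adjusted p of psmf1 was 0.0501 when genes under the minimum count were kept. It was 0.208, 0.127 and 0.185 without sham replicates 1, 2 and 3. With spike-in scaling it was 0.478, the highest of its alternatives, while the lowest was 0.000222 with the DESeq2 Wald test.

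The assembly chaperones, which help the rings and the base to form and then leave, are here only those that match the name rule. The core maturation factor pomp does not match it, and its log2 fold change was 1.14. Among the classes, the chaperones had the lowest median. It was 0.05 on the log2 scale over 6 genes, and -0.58 with libraries scaled to spike-in reads, and 1 of the 6 did not overlap. That gene was psmg1, a chaperone of the alpha ring, with 42.1 and 45 CPM in the SBS libraries, against 30.5, 36.2 and 40.5 CPM in the sham libraries and a log2 fold change of 0.28 ± 0.24 (SE), adjusted p = 0.480. Its partner psmg2 had 24.5 and 34 CPM in the SBS libraries, against 36.4, 25 and 40.7 CPM in the sham libraries, with SBS replicate 1 just under and SBS replicate 3 inside the sham range, and a log2 fold change of -0.22 ± 0.32 (SE), adjusted p = 0.689. The third alpha ring chaperone, psmg3, had 14.1 and 14.5 CPM in the SBS libraries, against 12.9, 12.1 and 16.9 CPM in the sham libraries, and a log2 fold change of 0.03 ± 0.27 (SE), adjusted p = 0.949 (95% interval -0.63 to 0.69).

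The other chaperone genes, psmd5, psmd9 and psmd10, serve the assembly of the base. The level of psmd9 was 9.93 and 10.5 CPM in the SBS libraries, against 8.13, 11 and 10.1 CPM in the sham libraries, and its log2 fold change was 0.07 ± 0.27 (SE), adjusted p = 0.890 (95% interval -0.60 to 0.74). For psmd10, known as gankyrin in mammals, it was 5.75 and 18.3 CPM in the SBS libraries, against 12.9, 25.6 and 15.9 CPM in the sham libraries. SBS replicate 1 lay below all sham libraries and SBS replicate 3 within them, and the log2 fold change was -0.59 ± 0.57 (SE), adjusted p = 0.530. It became 0.01 without SBS replicate 1. The level of psmd5 was 14.8 and 46.7 CPM in the SBS libraries, against 12.1, 15 and 9.90 CPM in the sham libraries. SBS replicate 3 was far above the other libraries, SBS replicate 1 lay inside the sham range, and the log2 fold change of psmd5 was 1.32 ± 0.50 (SE), adjusted p = 0.156.

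Within each library, the mean log2 level per length of the 6 chaperones minus that of the 36 subunits of the 26S particle was -2.10 and -2.25 in the SBS libraries, against -1.22, -1.26 and -1.13 in the sham libraries. Both SBS libraries lay below every sham library, and the difference of the means was -0.97 with an SD of 0.07 among sham libraries. This ratio within a library does not depend on how libraries are scaled, and it was computed with the classes' values known. Taken singly against the same subunits, psmd9, psmd10, psmg1, psmg2 and psmg3 were each lower in both SBS libraries than in every sham library. The exception was psmd5, at -2.86 and -2.02 in the SBS libraries, against -2.37, -2.33 and -2.78 in the sham libraries, with SBS replicate 3 the highest library of all. The chaperones' own levels overlapped between the groups in 5 of 6 genes. The 26S subunits they were set against had medians of 0.63 and 1.45 on the log2 scale over the sham mean in the SBS libraries. The median of all genes with reads in every library was -0.07 and -0.02 on that scale. A gene without change is therefore expected to come out lower by this measure, so the lower placing of the chaperones is no result apart from the rise of the subunits. The share of all genes that does so was not computed.

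**Figure D4:**
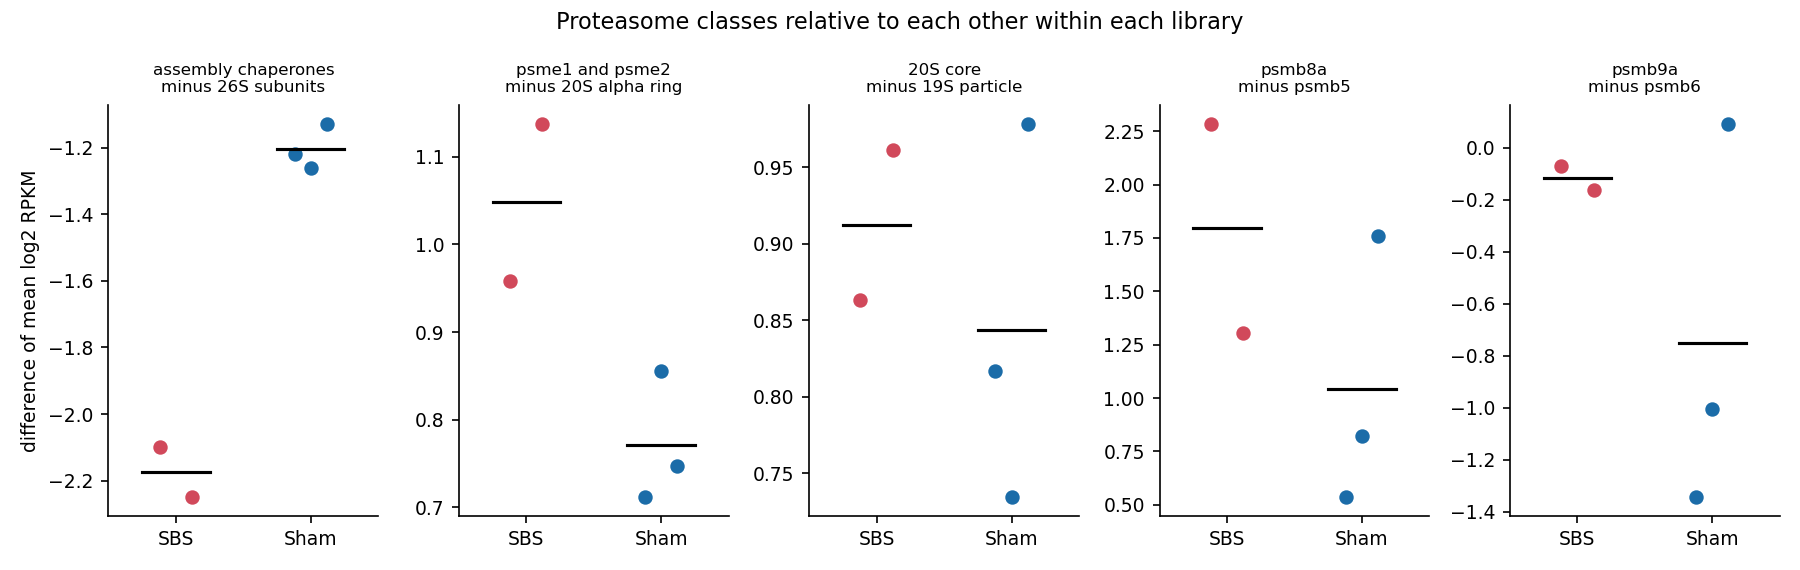
Difference of mean log2 level per length between classes within each library, 1 panel per comparison, with SBS libraries as red points, sham libraries as blue points and black bars at the group means (vertical axes differ between panels). Groups do not overlap for the chaperones against the 26S subunits or for psme1 and psme2 against the alpha ring, and overlap for the core against the 19S particle, psmb8a against psmb5 and psmb9a against psmb6. Genes without change are expected to come out lower against the 26S subunits, and the share of all genes that does so was not computed.

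The gene psmc3ip, which shares only the start of its name with the ATPases, had the largest log2 fold change of the members. Its level was low, with 2.88 and 8.90 CPM in the SBS libraries, against 0.379, 1.38 and 0.450 CPM in the sham libraries and as few as 13 counts in a library, and its log2 fold change was 3.00 ± 0.78 (SE), adjusted p = 0.0827. Without it the median of the members was 1.09.

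Factors that work beside the proteasome were described from a list of 23 genes, of which 17 were tested. Of these, 13 had a log2 fold change above 0, 9 were higher in both SBS libraries, 1 was lower in both, and none was called by the quasi-likelihood test. The median was 0.61. Of all genes, 50% were above 0, 22.6% were higher and 24.3% lower in both SBS libraries, and 2.49% were called higher. Among the 17, the 3 most abundant were nfe2l2a, rad23b and ubqln4. The transcription factor gene nfe2l2a, whose product Nrf2 drives the oxidative stress response, had 216 and 99.4 CPM in the SBS libraries, against 312, 369 and 268 CPM in the sham libraries, and both SBS libraries lay below the sham libraries, with a log2 fold change of -1.01 ± 0.43 (SE), adjusted p = 0.188. The shuttle factor genes rad23b and ubqln4, which carry ubiquitinated proteins to the proteasome, had log2 fold changes of -0.25 and -0.03, with overlapping groups. Named after their values were seen, the core maturation factor pomp had 74.2 and 150.2 CPM in the SBS libraries, against 43.2, 55.9 and 53.5 CPM in the sham libraries, and nfe2l1a, which encodes an Nrf1, the factor known for raising proteasome genes, had 39.1 and 123 CPM in the SBS libraries, against 35.7, 30.9 and 20.2 CPM in the sham libraries. Both were without overlap, with log2 fold changes of 1.14 ± 0.36 (SE), adjusted p = 0.113 for pomp, close to the median of the 26S subunits, and 1.49 ± 0.52 (SE), adjusted p = 0.135 for nfe2l1a. The paralog nfe2l1b did not share this, with 17.8 and 9.37 CPM in the SBS libraries, against 13.6, 10.7 and 12.6 CPM in the sham libraries. Its groups overlapped, SBS replicate 3 was the lowest library, and the log2 fold change was 0.15 ± 0.35 (SE), adjusted p = 0.815. The part of either gene in the proteasome results was not tested.

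The genes of ubiquitin supply and of the unfoldase upstream of the proteasome showed a divided picture. Of 17 tested from a list of 20, 13 had a log2 fold change above 0, 10 were higher and 2 lower in both SBS libraries, none was called, and the median was 0.49. The shares of all genes were 50% above 0, 22.6% higher and 24.3% lower in both SBS libraries, and 2.49% called higher. The polyubiquitin gene ubc had 1134 and 1685 CPM in the SBS libraries, against 342, 388 and 504 CPM in the sham libraries, with both SBS libraries more than 2-fold above the highest sham library and a log2 fold change of 1.78 ± 0.37 (SE), adjusted p = 0.0567. For rps27a, which encodes ubiquitin fused to a ribosomal protein, the level was 935 and 1203 CPM in the SBS libraries, against 2859, 1888 and 2970.2 CPM in the sham libraries. Both SBS libraries lay below every sham library, with a log2 fold change of -1.27 ± 0.42 (SE), adjusted p = 0.119. The unfoldase gene vcp, named after its values were seen, had 378 and 588 CPM in the SBS libraries, against 169.6, 188 and 178 CPM in the sham libraries, without overlap, and a log2 fold change of 1.44 ± 0.32 (SE), adjusted p = 0.0648.

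Downstream of the proteasome, class I antigen processing loads peptides for display to T cells. Of 13 genes tested from a list of 25, 5 had a log2 fold change above 0, 1 was higher in both SBS libraries, none was called, and the median was -0.14. Over all genes, 50% were above 0, 22.6% were higher in both SBS libraries and 2.49% were called higher. The light chain gene b2m had 2210.4 and 3529 CPM in the SBS libraries, against 2877, 3983 and 3569.9 CPM in the sham libraries, and its relative b2ml had 1631 and 1621 CPM in the SBS libraries, against 1464, 2517 and 2117 CPM in the sham libraries, with overlapping groups in both. The class I gene mhc1uba had 178 and 301 CPM in the SBS libraries, against 68.8, 1091 and 5175 CPM in the sham libraries, a spread among sham libraries that took in both SBS values, with a log2 fold change of -3.14 ± 1.63 (SE), adjusted p = 0.262.

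Genes of the interferon response had a median log2 fold change of 2.38 over 19 genes tested from a list of 21. Of these, 18 were above 0, 8 were higher and 1 lower in both SBS libraries, and 2 were called higher. The same shares over all genes were 50%, 22.6%, 24.3% and 2.49%. SBS replicate 1 carried the median of the list, which was 0.23 without SBS replicate 1 and 3.03 without SBS replicate 3, and in 6 of the 19 genes SBS replicate 3 lay below every sham library. One of the 6 was rsad2, an antiviral enzyme, with 81.4 and 1.28 CPM in the SBS libraries, against 6.55, 7.53 and 5.28 CPM in the sham libraries. The called genes were mxc, an antiviral GTPase, with 448 and 75.5 CPM in the SBS libraries, against 3.93, 8.66 and 5.04 CPM in the sham libraries and a log2 fold change of 5.48 ± 0.84 (SE), adjusted p = 0.0300, and gbp1, a guanylate-binding protein, with 251 and 264 CPM in the SBS libraries, against 15.7, 50.4 and 26.1 CPM in the sham libraries and a log2 fold change of 3.07 ± 0.52 (SE), adjusted p = 0.0365. The most abundant others were irf1b, a regulator of immunoproteasome genes in mammals, with a log2 fold change of 0.84 ± 0.44 (SE), adjusted p = 0.259, and stat2, a transducer of interferon signals, with 398 and 96.6 CPM in the SBS libraries, against 209.7, 189.7 and 87.2 CPM in the sham libraries. Both overlapped. The summed level of the list was 2764 and 1348 CPM in the SBS libraries, against 762, 711 and 570.3 CPM in the sham libraries, highest in SBS replicate 1. SBS replicate 1 was above SBS replicate 3 in 13 of the 19 genes. The reverse held for irf1b, with 240 and 550 CPM in the SBS libraries, against 270, 200 and 190 CPM in the sham libraries. The genes psmb8a, psmb9a, the psmb10 row and psmb12 were all highest in SBS replicate 3. Within sham they were highest in replicate 3. The interferon sum was lowest in that sham library, but single genes of the list differed in this. Among them, stat2 was lowest there, while socs1a was highest there, with 25.1, 27.5 and 69.2 CPM in the sham libraries. The part of the interferon genes in the proteasome results was not tested.

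The size of the proteasome shift depended on the scale chosen for the libraries. Spike-in RNA took 1.72% and 2.43% of all reads in the SBS libraries, against 0.809%, 0.663% and 0.791% in the sham libraries. The paper describes spike-in mixes that share their sequences and differ in concentrations, and it plots observed against expected fold changes. Which mix each library received is not given in the sources used here, so equal spike-in input was not established. When libraries were scaled to total spike-in reads, an alternative added after the data were seen, the median log2 fold change of the members was 0.36 and that of all genes was -0.63, with 40 members above 0 and 12 below. The 12 were psma4, psma6b, psmb5, psmb6, psmc5, psme3, psme4b and every chaperone but psmd5. The groups then did not overlap in 8 members, where 6.95% of all genes were higher without overlap. When libraries were scaled to gene reads alone, the median was 1.88 for the members and 0.82 for all genes, and 42 members were called higher, where 16.9% of all genes were. Relative to the median of all genes, the members lay between 0.97 and 1.49 higher in every setting but 1, and at 0.67 without SBS replicate 3.

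**Figure D5:**
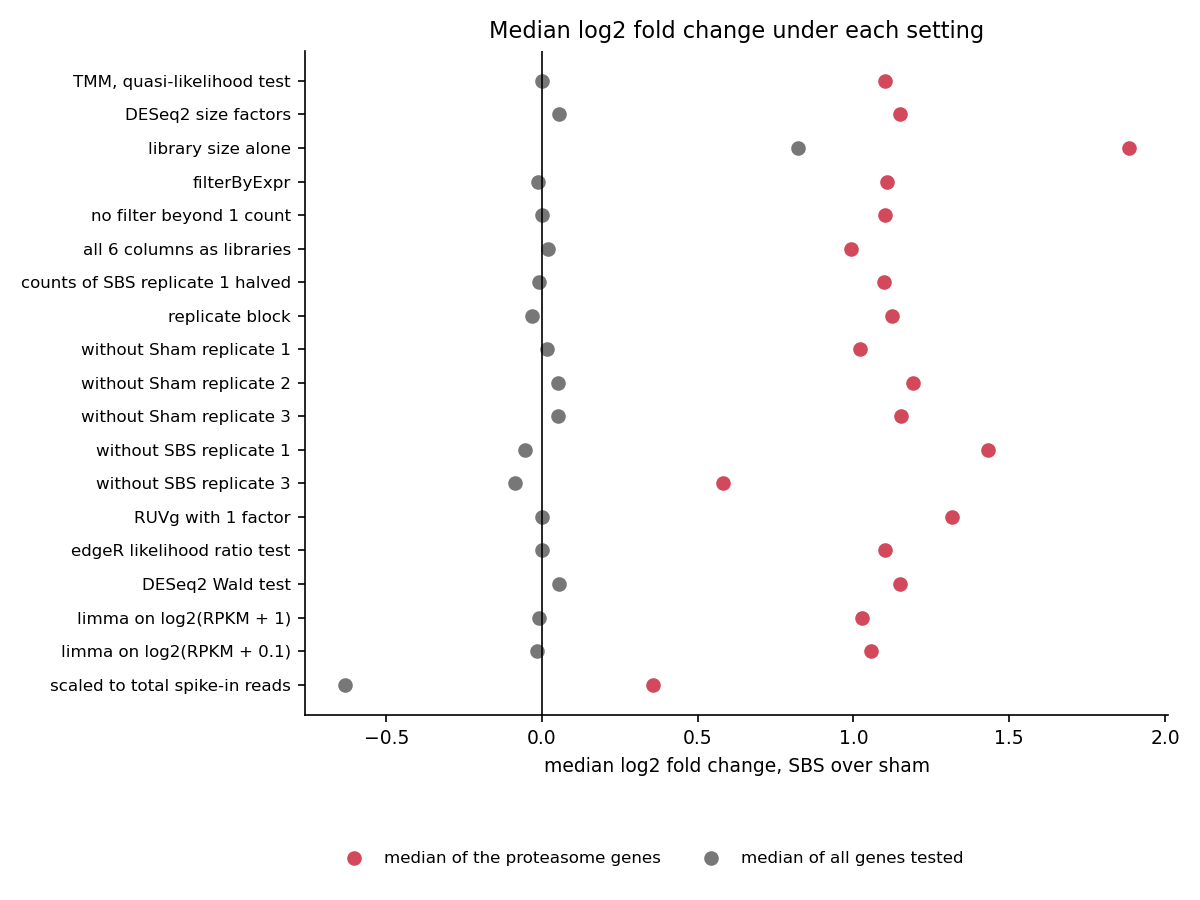
Median log2 fold change of SBS over sham for the proteasome genes (red) and for all genes tested (grey) under each setting, with the main test at the top. The red point lies to the right of the grey point in every setting, while both move to the right with gene reads alone and to the left with spike-in reads.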

How the data were processed

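The authors deposited raw counts per gene for 6 libraries in 1 table. Per the study's methods, reads were checked with FastQC, trimmed with Trimmomatic, aligned with STAR and counted with HTSeq. The methods name danRer7 and the submitters' processing notes GRCz10, and tool versions and the strand setting of the counting are not given in the sources used here. The authors deposited RPKM values, made with edgeR from counts, gene length and a library size per column, which were inspected only. Gene lengths in bases came from the same table. Deposited columns of the authors' own comparison (fold changes, test statistics, p-values, FDR) were not used.

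Of 12418 gene rows, 20 repeated rows with equal counts were dropped, which left 12398 genes. Of these, 12381 had at least 10 counts over the 5 distinct libraries and 17 did not. The 70 spike-in rows were kept out of library sizes. Counts were TMM-scaled and tested with edgeR 4.0.16 (R 4.3.3) by the quasi-likelihood test on group alone, with Benjamini-Hochberg adjustment over all genes tested. The limits for a call were those of the study, 0.05 for the adjusted p and 1.5 for the size of the log2 fold change. CPM and RPKM in the text use TMM-scaled library sizes. Standard errors are the size of the log2 fold change over the square root of the F statistic, and 95% intervals use the moderated degrees of freedom. The labels number the samples without saying that each is another fish, so p-values measure the spread between these libraries, and the study gives 3 fish a group.

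Alternatives were DESeq2 1.42.0 size factors and Wald test, gene reads alone, filterByExpr, a minimum of 1 count, all 6 columns, halved counts of SBS replicate 1, a replicate block, the likelihood ratio test, RUVg written by hand with 1 factor (controls being all but the 5000 genes of smallest p), limma 3.58.1 on log2(RPKM + 1) and log2(RPKM + 0.1), no fold limit, and each library left out. Added after the data were seen were spike-in scaling, leaving out psmc3ip and a narrower catalytic ratio. Of the ratios within a library, only that of the immunoproteasome against the constitutive catalytic subunits was planned. Scripts were tested on simulated data. Genes named were, per class, those with the highest and lowest log2 fold change, every variant beta gene and activator, genes with a sign against their class and paralog pairs, and from other lists the called genes and the 3 of highest mean level, 1 of which is not reported here. Members and lists were chosen with earlier results of these data known. RefSeq symbols matched 49 of 52 members by Entrez identifier and 51 were in the Ensembl name list. No sequences are shown.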

Additional observations from a re-analysis of the deposited data

How the results depend on the processing

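The number of members called higher, 0 by the quasi-likelihood test, was 42 with gene reads alone, 3 with all 6 columns, 12 with RUVg, 6 with the likelihood ratio test, 7 with the DESeq2 Wald test and 1 without the fold limit, and ran from 0 to 16 over the settings that left out 1 library (16 without SBS replicate 1, 1 without SBS replicate 3, 0 without any sham replicate). It was 0 in the other settings, and no setting called a member lower. The number without overlap, 42, was 8 with spike-in scaling, 51 with gene reads alone, and 42 to 48 when 1 library was left out. The share of all genes without overlap moved as well, being 22.6% as reported, 6.95% with spike-in scaling, 54.2% with gene reads alone, 34.5% without SBS replicate 1, 38.2% without SBS replicate 3 and 25.3% to 28.4% without a sham replicate. The median of the members, 1.101, was 1.88 with gene reads alone and 0.36 with spike-in scaling, and ran from 0.58 to 1.43 when 1 library was left out. The catalytic ratio, 0.15, ran from -0.187 to 0.499 when 1 library was left out, and turned negative without sham replicate 1 (-0.187) and without SBS replicate 3 (-0.031). Over 936 pairs of a member and an alternative, 830 kept direction and side of the threshold, 87 gained a call and 19 reversed, in 12 members, and 40 members never reversed. The settings that left 1 SBS library entered these pairs, and their calls rest on the spread among sham libraries alone. With spike-in scaling, log2 fold changes turned negative for psma4 (-0.133), psma6b (-0.016), psmb5 (-0.037), psmb6 (-0.017), psmc5 (-0.0087), psmd9 (-0.587), psme3 (-0.0030), psme4b (-0.134), psmg1 (-0.348) and psmg3 (-0.566), as did the chaperone median (-0.576). With gene reads alone, psmd10 (0.144) and psmg2 (0.622) turned positive. When 1 library was left out, the log2 fold change ran from -0.144 to 1.32 for psmb5 (negative without SBS replicate 3), from -1.66 to 0.012 for psmd10 and from -0.473 to 0.00063 for psmg2 (both positive without SBS replicate 1), from -0.046 to 0.205 for psmd9 (negative without sham replicate 1) and from -0.021 to 0.215 for psmg3 (negative without sham replicate 1 or 2), and the chaperone median from -0.034 to 0.167 (negative without sham replicate 1). The cause of these moves was not tested. For the replicate block, replicate numbers 1 and 3 are shared between the groups. Deviations of same-numbered libraries correlated at -0.11 and -0.12 across genes. With 2 SBS libraries, their deviations from the group mean mirror each other. These values therefore cannot decide whether the numbers pair the samples. With the block the member median was 1.12, 0 members were called, psmg3 was -0.048 and the adjusted p of psmf1 was 0.281 at a log2 fold change of 1.28. With 2 SBS libraries, 1 of them holding only even counts, the spread within SBS rests on a single difference. Which of the spike-in mixes went into which group is not given in the sources used here. Groups of 3 and 2 libraries are too small for a check of single outlying libraries.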
